A study of Mus musculus with 10 samples.

Results

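The Serpin family was examined in mouse liver and in liver tumours driven by c-MYC, with or without active FOXO1. Its members were taken by name, as every gene of the deposited table whose symbol is Serpin followed by a clade letter from a to i and a number. The table lists 16697 genes with a symbol, and 33 Serpin genes are described, of which 20 belong to clade a, 5 to clade b, 2 to clade f, and 1 each to clades c, d, e, g, h and i. GENCODE release M21 annotates 68 such genes, and 34 of these, 23 of them in clade b, were not analysed here.

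Most serpins are suicide inhibitors of serine proteases. The target protease cuts a loop of the serpin exposed as bait, and the serpin then changes shape and carries the trapped enzyme away. Hepatocytes secrete the plasma serpins that hold blood clotting, fibrinolysis, complement and neutrophil proteases in check, together with family members that only carry hormones, whereas clade b serpins lack a classical secretion signal and act mainly inside cells.

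RNA sequencing covered 10 libraries, with normal liver (NL, n = 4), c-MYC tumours (c-MYC, n = 3) and c-MYC/FOXO1AAA tumours (c-MYC/FOXO1AAA, n = 3). Plasmids were delivered to hepatocytes by hydrodynamic tail vein injection, with a sleeping beauty transposase for integration. Both tumour groups carried c-MYC behind the EF1α promoter in the pT3 vector. The c-MYC group received the empty pT3 vector in addition, and the other group received FOXO1AAA, a FOXO1 that AKT can no longer switch off, in the same vector. The characteristics in the labels give every sample the strain C57BL/6 and the genotype WT, the extraction text and the methods of the study name FVB mice, and MCL1 is named among the plasmids of the control tumours in some of these texts and not in others. No age or sex was given per sample. Nothing in the labels says whether libraries came from separate animals, so the p-values measure the spread between these samples. The libraries held 13.12 to 20.55 M reads in the listed genes.

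Levels are given as FPKM, fragments scaled to gene length and to library size, and differences as log2 fold changes with their standard error (SE). A gene was called when the treat test of limma, run over all 14017 genes that passed a filter on low values, gave an adjusted p under 0.05 for a change above 1.5-fold. Of the 33 Serpin genes, 29 passed the filter, and Serpina3c, Serpina3f, Serpinb1a and Serpini1 did not. The tissue was mixed, so fewer cells of a type and less RNA per cell cannot be told apart. The 10 hepatocyte markers summed to 84266 to 93734 FPKM in NL, 3845 to 5655 in c-MYC and 893 to 1578 in c-MYC/FOXO1AAA. The Foxo1 entry averaged 7.12 FPKM in NL, 5.62 in c-MYC and 83.1 in c-MYC/FOXO1AAA, which follows the labels. Mouse Myc averaged 11.1 FPKM in NL and 0.704 and 0.916 in the tumours, and whether reads of the injected c-MYC count towards it is not given in the sources used here.

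The promoters of 7 members are shown because these genes moved in groups in the results that follow. Serpina1a to Serpina1e are neighbouring copies of the alpha-1 antitrypsin gene that fell together in the tumours, and Serpina7 and Serpina3n are 2 of the 4 members that fell with c-MYC and rose again with FOXO1AAA. The sequences are those of RefSeq on GRCm38.p6, written 5′ to 3′ on the strand of the gene, from 250 bases before the start site to 50 after it. Capitals mark GTTAAT, a core of the site bound by the hepatocyte factor HNF1.
Serpina1a, chr12:103863570-103863869, minus strand: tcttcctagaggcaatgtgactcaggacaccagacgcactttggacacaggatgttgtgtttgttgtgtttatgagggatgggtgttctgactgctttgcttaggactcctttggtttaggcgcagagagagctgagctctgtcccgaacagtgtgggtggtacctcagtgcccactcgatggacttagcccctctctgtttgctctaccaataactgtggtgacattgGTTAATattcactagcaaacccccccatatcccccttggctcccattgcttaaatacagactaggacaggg
Serpina1b, chr12:103738140-103738439, minus strand: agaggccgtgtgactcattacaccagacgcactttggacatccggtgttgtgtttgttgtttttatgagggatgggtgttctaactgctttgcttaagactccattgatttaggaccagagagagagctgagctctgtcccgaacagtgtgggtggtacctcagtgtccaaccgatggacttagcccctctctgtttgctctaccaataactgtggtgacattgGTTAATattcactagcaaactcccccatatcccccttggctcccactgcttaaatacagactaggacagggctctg
Serpina1c, chr12:103904901-103905200, minus strand: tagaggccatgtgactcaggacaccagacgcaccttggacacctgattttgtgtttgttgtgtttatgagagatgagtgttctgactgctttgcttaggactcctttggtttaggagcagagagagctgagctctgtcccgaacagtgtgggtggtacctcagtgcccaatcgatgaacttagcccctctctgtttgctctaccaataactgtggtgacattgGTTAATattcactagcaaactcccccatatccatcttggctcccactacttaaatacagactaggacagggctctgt
Serpina1d, chr12:103773584-103773883, minus strand: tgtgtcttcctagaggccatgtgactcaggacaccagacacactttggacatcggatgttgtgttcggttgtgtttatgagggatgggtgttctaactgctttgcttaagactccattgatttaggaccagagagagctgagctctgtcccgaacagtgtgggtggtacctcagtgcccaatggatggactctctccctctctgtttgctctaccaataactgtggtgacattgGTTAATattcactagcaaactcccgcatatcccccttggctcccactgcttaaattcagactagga
Serpina1e, chr12:103956848-103957147, minus strand: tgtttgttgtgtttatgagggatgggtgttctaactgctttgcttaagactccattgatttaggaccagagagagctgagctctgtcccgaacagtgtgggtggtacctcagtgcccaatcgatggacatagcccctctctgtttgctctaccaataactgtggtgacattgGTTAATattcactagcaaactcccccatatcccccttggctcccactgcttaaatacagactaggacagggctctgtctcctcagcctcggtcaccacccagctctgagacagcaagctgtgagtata
Serpina7, chrX:139085187-139085486, minus strand: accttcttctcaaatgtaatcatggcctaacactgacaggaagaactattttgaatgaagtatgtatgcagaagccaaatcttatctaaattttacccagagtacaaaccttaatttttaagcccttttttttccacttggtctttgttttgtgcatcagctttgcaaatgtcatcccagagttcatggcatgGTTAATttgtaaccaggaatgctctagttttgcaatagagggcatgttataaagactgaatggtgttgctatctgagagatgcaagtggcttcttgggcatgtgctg
Serpina3n, chr12:104406458-104406757, plus strand: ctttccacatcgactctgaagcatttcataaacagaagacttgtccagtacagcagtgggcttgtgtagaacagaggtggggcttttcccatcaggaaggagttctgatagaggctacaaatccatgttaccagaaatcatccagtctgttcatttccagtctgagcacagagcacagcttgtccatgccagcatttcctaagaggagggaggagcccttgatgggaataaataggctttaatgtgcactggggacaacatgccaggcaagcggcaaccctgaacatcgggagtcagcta

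Each of the 5 Serpina1 promoters held GTTAAT, read in the direction of the gene, with its first base at -21 in Serpina1a, -26 in Serpina1b, -27 in Serpina1c, -16 in Serpina1d and -78 in Serpina1e. Aligned with gaps, the windows of 238 bases around that motif were 92 to 98.3% identical between pairs over 236 to 238 aligned bases, with at most 4 bases in gaps. Serpina1b and Serpina1e were the closest pair, with 4 mismatches. Serpina7 held the motif at -57, and Serpina3n had none. RefSeq promoters of 24 members, 28 in all, were searched on both strands. The other 9 members, with Serpina3k and Serpina3m among them, had no such promoter and were not searched. GTTAAT was in 9 of them (32.1%), from 8 genes, against 7.1% of 32851 promoters of all genes of the same length. Of these 9, 5 are the Serpina1 copies, and Serpina7 counts with overlapping windows that hold the same site, at -57 and -74. The 9 are therefore not independent, and the share of 32.1% is raised by copies. The C/EBP site TTGCGCAA was in 1 (Serpina5) against 0.183%. The FOXO core GTAAACA was in 0 of the 28 against 3.65%, and the E-box CACGTG bound by MYC was in 0 against 7.15%. These are counts of exact letters in a short window, and none of the motifs searched overlapped another. Other forms of these sites were not searched, so a count of 0 does not show that a promoter lacks a site.

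In NL, the Serpin genes together took 2.13 ± 0.14% (SD, n = 4) of all reads, and clade a made up 73% of them. The levels spanned from 0.0455 FPKM for Serpini1 to 9772 for Serpinc1 (antithrombin), with Serpina3k at 3893, Serpina1b at 3558, Serpina1c at 1847 and Serpinf1 at 1530. Such an order between genes depends on the gene length the authors divided by, which was that of 1 annotated transcript, and in 8 members it was under 0.5 of the longest one. For Serpinc1 the length was 360 bp against 4970 bp for the longest transcript, and with the longest lengths it would rank 7 rather than 1. The fold change of a gene between groups does not depend on this length. The filter on low values and the test both use FPKM, so whether a gene is tested and called can depend on it.

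**Figure D1:**
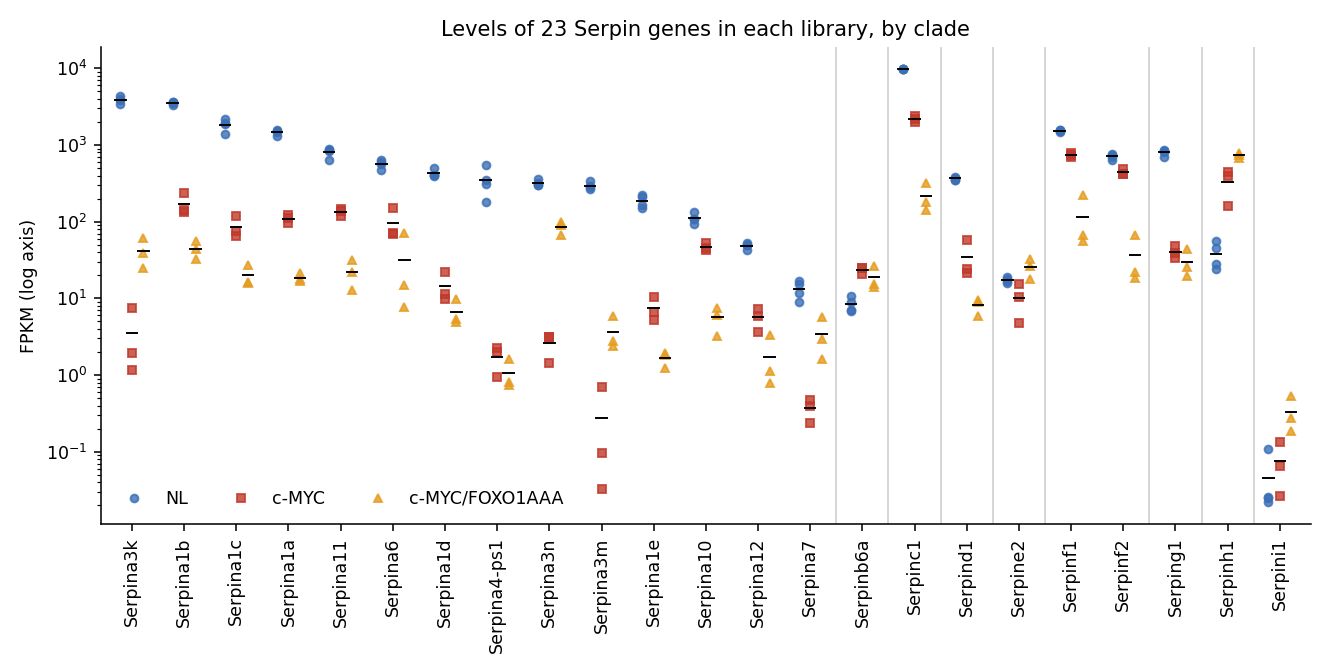
Level of 23 Serpin genes in every library. The y axis is FPKM on a log scale, each symbol is a library, black bars are group means, and grey lines separate clades a, b, c, d, e, f, g, h and i from left to right. Serpina3k stood at 3453 to 4321 FPKM in NL, 1.161 to 7.489 in c-MYC and 24.61 to 62.06 in c-MYC/FOXO1AAA. Serpinh1 averaged 38.2, 331 and 738 FPKM in these groups, and of its 2 steps only that from NL to c-MYC was called.

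The comparison of c-MYC tumours with NL asked how the family stands in the tumours. The family was lower as a whole, at 0.464 ± 0.0385% of reads (SD, n = 3). Of the 29 tested members, 21 fell, 2 rose and 6 were not called, so that 79.3% were called against 48.1% of all tested genes, 72.4% fell against 23.6%, and 6.9% rose against 24.5%. The values of the groups did not overlap for 27 of the 29, against 73.9% of all tested genes. The loss was deepest in clade a, where 16 of 18 tested members fell and 0 rose, with a median log2 fold change of -4.44 against 0.08 over all tested genes. In clade b, 2 of 4 fell and 1 rose. The 2 that fell, Serpinb8 and Serpinb9, and Serpina9 of clade a stood below 1 FPKM in every tumour library. They passed the filter on low values through NL alone, so a fall was the only call against NL they could give. The single members of clades c, d and g fell, Serpine2 of clade e and the 2 members of clade f were not called, and Serpinh1 of clade h rose. Scaling the libraries to an equal FPKM total instead moved the median of all genes from 0.08 to 1.01, and changes below are relative to the deposited scaling.

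The comparison of c-MYC/FOXO1AAA with c-MYC asked what active FOXO1 changes within c-MYC tumours. It split the family. Of the 29 tested members, 4 rose, 12 fell and 13 were not called, so that 55.2% were called against 28.7% of all tested genes, 13.8% rose against 15.9% and 41.4% fell against 12.7%. The groups did not overlap for 20 of the 29, against 63.4% of all tested genes. In clade a, 4 of 18 rose and 8 fell, with a median of -1.79 against 0.03 over all tested genes. In clade b, 0 of 4 were called by limma, also without the fold-change threshold (adjusted p of at least 0.21 over all alternatives). Both members of clade f fell. Against NL, which shares its libraries with the first comparison, 25 of the 29 were lower in c-MYC/FOXO1AAA and 2 higher (93.1% called against 57.8% of all tested genes, 86.2% lower against 26.6% and 6.9% higher against 31.2%). The groups did not overlap for 27 of the 29, against 80.1%.

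**Figure D2:**
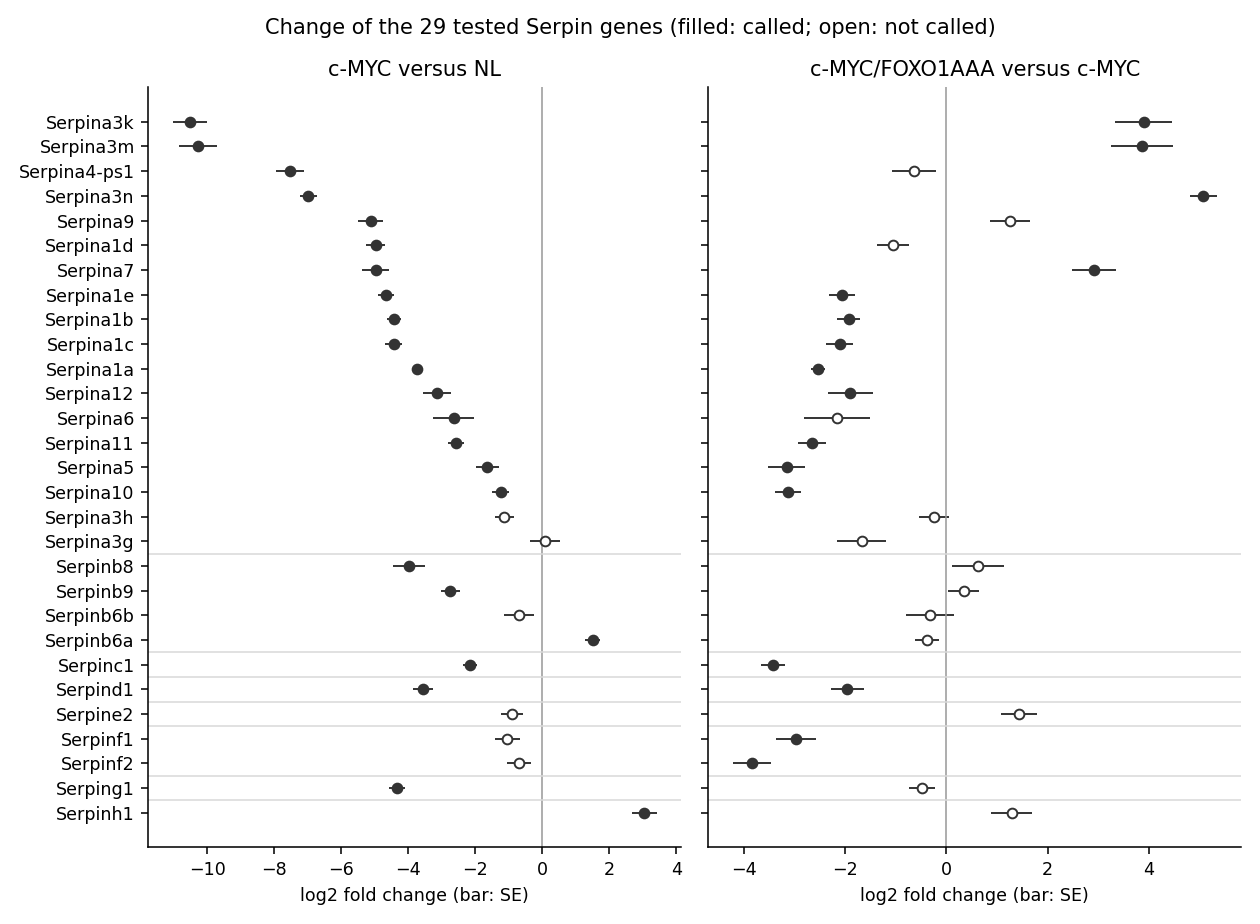
Log2 fold change of the 29 tested Serpin genes in c-MYC against NL (left) and in c-MYC/FOXO1AAA against c-MYC (right). Bars are standard errors, filled points passed the test, open points did not, and grey lines separate the clades. Serpina3k, Serpina3m, Serpina3n and Serpina7 lie left of 0 in the first comparison and right of 0 in the second, and Serpinf1 and Serpinf2 were called in the second only.

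Serpina3k, Serpina3m and Serpina3n are mouse relatives of human alpha-1 antichymotrypsin, an inhibitor of neutrophil and mast cell proteases that belongs to the acute-phase proteins. Serpina3n stood at 317.1, 297.1, 357.8 and 300.7 FPKM in the NL libraries. It stood at 1.452, 3.137 and 3.165 in c-MYC and at 89.57, 99.33 and 67.54 in c-MYC/FOXO1AAA. The 3 groups did not overlap, and the c-MYC/FOXO1AAA tumours lay between the others, at 26.9% of the NL mean against 0.812% in c-MYC. From NL to c-MYC it fell by 6.99 on the log2 scale (SE 0.25, limma adjusted p = 7.62e-09), and from c-MYC to c-MYC/FOXO1AAA it rose by 5.08 (SE 0.27, adjusted p = 3.3e-07), the largest rise among the tested Serpin genes. Between c-MYC/FOXO1AAA and NL it was -1.91 (adjusted p = 0.000399), a call that was lost with an equal FPKM total (-0.81, adjusted p = 0.26, range over all alternatives 7.53e-06 to 0.26).

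Serpina3k read 3843, 3453, 4321 and 3956 FPKM in NL. In c-MYC it read 1.934, 1.161 and 7.489, and in c-MYC/FOXO1AAA 39.36, 62.06 and 24.61. Here too the groups stood apart, but the rise with FOXO1AAA brought the level to 1.08% of NL, from 0.0906%. The first difference of -10.52 (SE 0.52, limma adjusted p = 7.47e-08), was the deepest fall among the members, and the rise was 3.90 (SE 0.56, adjusted p = 0.000522). c-MYC 3 held the highest of the c-MYC values, and without it the changes were -11.28 and 4.65. Serpina3m read 265.6 to 337.1 FPKM in NL, 0.03286, 0.09604 and 0.6895 in c-MYC (1, 3 and 21 reads), and 2.423, 5.835 and 2.768 in c-MYC/FOXO1AAA. Its changes were -10.27 and 3.87 (limma adjusted p = 1.67e-07 and 0.00095). Without c-MYC 3 they were -11.11 and 4.72, and without c-MYC 1 they were -9.68 and 3.28. A pseudocount of 1 FPKM, which lies above all c-MYC values of this gene, gave -7.80 and 1.78 (adjusted p = 2.06e-10 and 0.00146). Serpina3m and Serpina3k start at the same base in the annotation, and the Serpina3 genes are related copies, so reads may have been divided between some of them in counting.

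Serpina7, the thyroxine-binding globulin that carries thyroid hormone in blood, lies on chromosome X (139079257 to 139085236, minus strand, GRCm38), away from the other clade a genes. Its levels were 15.54, 8.878, 11.74 and 16.79 FPKM in NL, 0.2338, 0.4784 and 0.3972 in c-MYC, and 1.62, 5.776 and 2.932 in c-MYC/FOXO1AAA. It shared the fall and partial rise of the Serpina3 genes, at 2.79% and 26% of NL. It fell by 4.98 (SE 0.40, limma adjusted p = 2.92e-06) and then rose by 2.92 (SE 0.43, adjusted p = 0.000805). With a pseudocount of 1 FPKM the changes were -3.30 and 1.56 (adjusted p = 4.33e-06 and 0.0194). With an equal FPKM total, Serpina7 in c-MYC/FOXO1AAA was no longer called below NL (-0.97, adjusted p = 0.225, range over all alternatives 0.000544 to 0.225).

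Hepatocyte genes outside the family divided in a like way. All 10 hepatocyte markers fell in c-MYC against NL, with a median of -4.25, where 23.6% of all tested genes fell. In c-MYC/FOXO1AAA against c-MYC 3 rose, 5 fell and 2 were not called, where 15.9% of all tested genes rose and 12.7% fell. The 3 that rose were Tat, which begins tyrosine breakdown (2.40, limma adjusted p = 0.000607), Pck1, a rate-limiting enzyme of glucose production (3.27, adjusted p = 0.000778), and Cyp2e1, which oxidises ethanol (2.75, adjusted p = 0.0136, not called without c-MYC/FOXO1AAA 2). They reached 0.545%, 0.56% and 0.819% of NL. Serpina3n and Serpina7 stood higher, at 12.2 to 43.6% of NL in each of the c-MYC/FOXO1AAA libraries. Genes of other lists fell and rose as well, some of them back to the NL level, and those named here were chosen after their values were seen. Pros1 (protein S, a cofactor of activated protein C) averaged 19.8, 1.38 and 21.9 FPKM (-3.83 and 3.95, limma adjusted p = 5.84e-08 and 2.07e-07). The stellate cell and fibroblast markers Dcn and Reln stood at 6.48% and 1.85% of NL in c-MYC and at 338% and 121% in c-MYC/FOXO1AAA. The cholangiocyte marker Spp1 stood at 7.5% and 130% of NL, and the Kupffer cell marker Clec4f at 2.15% and 8.62%. Over whole lists, 6 of 8 stellate cell and fibroblast markers rose with FOXO1AAA and 0 fell. Of 9 Kupffer cell and macrophage markers 1 rose and 2 fell, namely Timd4 and Cd5l. Of 4 tested cholangiocyte markers 2 rose and 1 fell, namely Epcam. In c-MYC/FOXO1AAA the lists summed, in that order, to 449 to 495, 81.9 to 139 and 29.9 to 37.8 FPKM. In c-MYC they summed to 12 to 39.5, 173 to 228 and 17.3 to 32.1 FPKM. In NL they summed to 84.3 to 106, 243 to 431 and 19.8 to 27.6 FPKM. The part of these cells in the Serpina3 and Serpina7 values was not tested.

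**Figure D3:**
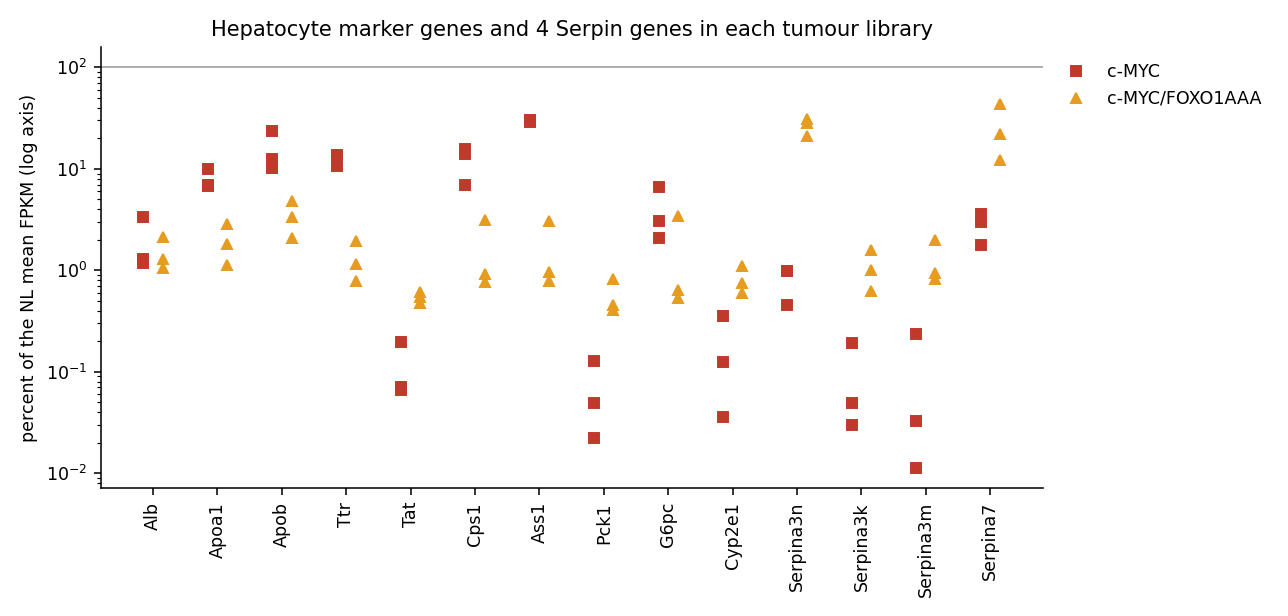
Level in each tumour library as a percentage of the NL mean, on a log axis, for 10 hepatocyte marker genes and the 4 Serpin genes that fell and rose. Squares are c-MYC libraries, triangles are c-MYC/FOXO1AAA libraries and the grey line is 100%. Serpina3n stood at 21.2 to 31.2% and Serpina7 at 12.2 to 43.6% in c-MYC/FOXO1AAA, whereas the hepatocyte markers of the same libraries stood between 0.404 and 4.78%.

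Serpina1a to Serpina1e encode alpha-1 antitrypsin, the main inhibitor of neutrophil elastase in plasma, and are expressed by hepatocytes. Summed, they fell from 7491 ± 615 FPKM in NL (SD, n = 4) to 387 ± 105 in c-MYC and 91.2 ± 16.4 in c-MYC/FOXO1AAA (SD, n = 3 each), which is 5.17% and 1.22% of NL. All 5 fell in c-MYC, with log2 fold changes from -4.98 (Serpina1d) to -3.75 (Serpina1a) and limma adjusted p of at most 3.72e-07. With FOXO1AAA 4 of them fell further, by 2.54 for Serpina1a, 1.93 for Serpina1b, 2.11 for Serpina1c and 2.06 for Serpina1e on the log2 scale. For Serpina1d the difference was -1.06 (SE 0.31, adjusted p = 0.227), and c-MYC/FOXO1AAA 2 at 9.846 FPKM lay above the lowest c-MYC library at 9.772. Without that library Serpina1d was called as well (-1.36, adjusted p = 0.0465, range over all alternatives 0.0152 to 0.728). The 5 genes are close copies, and in the annotation the span of Serpina1b runs across Serpina1d, so their sum is given beside them.

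The other plasma serpins of clade a include hormone carriers, coagulation inhibitors and an adipokine. Serpina6, the corticosteroid-binding globulin, read 638, 597.1, 472.7 and 567.8 FPKM in NL and 71.19, 150.1 and 69.43 in c-MYC. In c-MYC/FOXO1AAA it read 14.97, 7.634 and 71.73, so that c-MYC/FOXO1AAA 3 alone reached the c-MYC range. It fell in c-MYC (-2.64, SE 0.61, limma adjusted p = 0.00916, lost with an equal FPKM total at 0.0739, range over all alternatives 0.000121 to 0.0739). The further difference with FOXO1AAA was -2.16 (adjusted p = 0.0643), and without c-MYC/FOXO1AAA 3 it was -3.07 and called (adjusted p = 0.000302). Without c-MYC/FOXO1AAA 2 it was -1.46 (adjusted p = 0.238, range over all alternatives 0.000302 to 0.238).

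Serpina10, the protein Z-dependent inhibitor of factor Xa, read 109.6, 93.19, 133.5 and 108.2 FPKM in NL and 45.33, 53.2 and 42.38 in c-MYC. It read 3.237, 6.154 and 7.565 in c-MYC/FOXO1AAA, and on the log2 scale the larger drop came with FOXO1AAA, whereas in FPKM it came with c-MYC. The first step was -1.24 (SE 0.25, limma adjusted p = 0.0272) and the second -3.13 (SE 0.26, adjusted p = 1.61e-05). The first missed the threshold without NL 3, c-MYC 1 or c-MYC 3 (adjusted p = 0.0669, 0.0662 and 0.0792) and with an equal FPKM total (0.994, range over all alternatives 0.000976 to 0.994). Serpina11, whose target is not established, fell in both steps (-2.58 and -2.66) from a mean of 809 FPKM through 135 to 22.4.

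Serpina12, also called vaspin, fell from 48.6 FPKM in NL to 5.65 and 1.74, and its second step (-1.90, SE 0.44, limma adjusted p = 0.026) missed the threshold without any 1 of 4 libraries, namely c-MYC 2, c-MYC 3, c-MYC/FOXO1AAA 1 and c-MYC/FOXO1AAA 2 (adjusted p = 0.0689 to 0.102), with a pseudocount of 1 FPKM (0.0504) and with only the 2 groups compared (0.0615, range over all alternatives 0.000153 to 0.102). Serpina4-ps1, annotated as an unprocessed pseudogene, fell from 346 ± 155 FPKM (SD, n = 4) to 1.73 ± 0.702 and stood at 1.07 ± 0.493 with FOXO1AAA (SD, n = 3 each). It was called in the first step only (-7.54, limma adjusted p = 1.67e-07, and -6.86 with a pseudocount of 1 FPKM).

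A few clade a genes were low throughout and are given so that every member is accounted for. Serpina5, the protein C inhibitor, fell in both steps (-1.64 and -3.16) from 3.25 FPKM through 0.99 to 0.07, the first lost without c-MYC 1 (adjusted p = 0.0507, range over all alternatives 0.00123 to 0.465) and the second with a pseudocount of 1 FPKM (0.193, range 3.13e-05 to 0.193). Serpina9, known from germinal centre B cells, fell from 1.44 FPKM to 2 reads or fewer per c-MYC library, which is at least 31.7-fold lower against a floor of 3 reads per library. The pseudogene Serpina3h averaged 3.66, 1.72 and 1.34 FPKM, and Serpina3g, an inhibitor of cathepsins in lymphocytes, 0.949, 1.05 and 0.201. Both were called only between c-MYC/FOXO1AAA and NL (adjusted p = 0.0166 and 0.0455), and Serpina3h lost that call without c-MYC/FOXO1AAA 1 (0.0504, range over all alternatives 0.000906 to 0.961). Serpina3g lost it without any 1 of 6 libraries, NL 1, NL 2, NL 4, c-MYC 3, c-MYC/FOXO1AAA 1 or c-MYC/FOXO1AAA 2 (range 0.00785 to 0.694). Serpina3c averaged 0.647 FPKM and Serpina3f 0.589 FPKM in NL, and both averaged less in the tumours.

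Apart from Serpina7, all clade a genes of the table lie in 1 cluster on chromosome 12, from 103614786 to 104414329 on GRCm38, 800 kb that hold 28 annotated Serpina genes, 19 of them in the table. In the order along the chromosome, the 12 genes from Serpina10 to Serpina5 gave 0 calls above c-MYC with FOXO1AAA, where 15.9% of all tested genes were called higher, although Serpina9 was called without the fold-change threshold (1.26, limma adjusted p = 0.0186, range over all alternatives 0.0186 to 1). The 3 genes that rose, Serpina3k, Serpina3m and Serpina3n, lie side by side at the other end. Between the ends, Serpina3c and Serpina3f were below the filter, and Serpina3g and Serpina3h were not called. Neighbouring copies share sequence and position, so these genes are not independent observations.

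**Figure D4:**
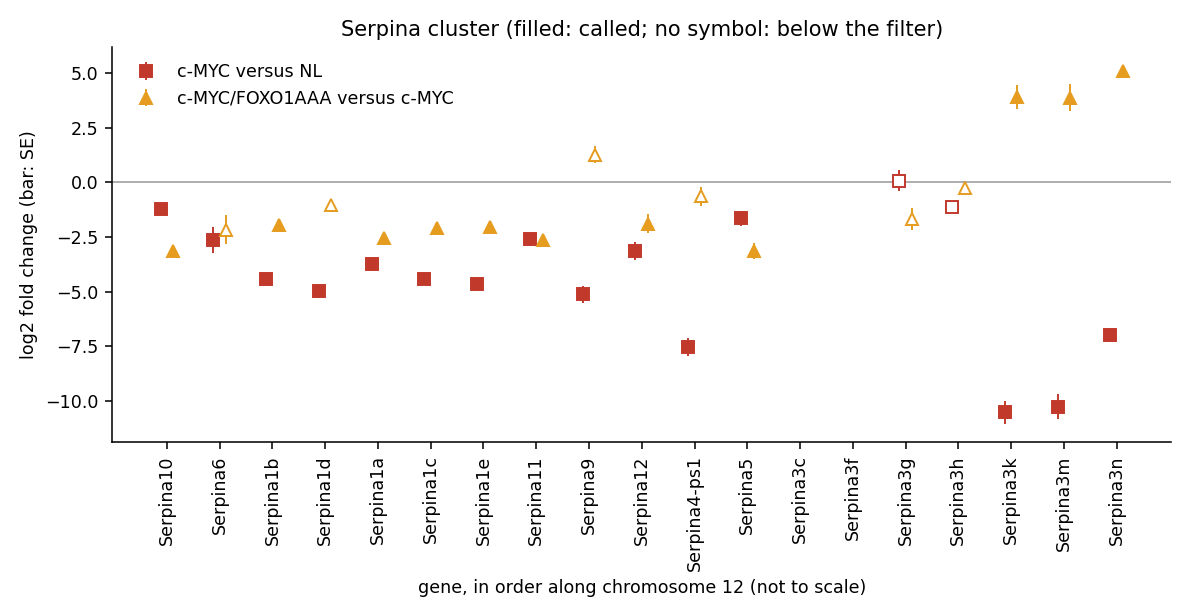
Log2 fold change of the Serpina genes in their order along chromosome 12, which is not drawn to scale. Squares compare c-MYC with NL and triangles c-MYC/FOXO1AAA with c-MYC, bars are standard errors, and filled symbols passed the test. Triangles of the last 3 genes lie at 3.87 to 5.08, and filled triangles of the first 12 genes lie at -1.90 or lower.

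Serpinc1 encodes antithrombin, which inhibits thrombin and factor Xa with heparin as cofactor. It was steady among the NL libraries at 9722, 9779, 9780 and 9807 FPKM. It read 2014, 2168 and 2400 in c-MYC and 142.5, 183.1 and 318.5 in c-MYC/FOXO1AAA. The groups were far apart, at 22.5% and 2.2% of NL, and the second step was the larger on the log2 scale (-2.16, SE 0.22, and -3.43, SE 0.23, limma adjusted p = 5.23e-05 and 2.39e-06). Serpind1, heparin cofactor II, which inhibits thrombin, fell mostly in the first step, from 367 ± 15.7 to 34.4 ± 20.2 and 8.13 ± 1.94 FPKM (-3.56 and -1.96, adjusted p = 7.58e-06 and 0.00422).

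Serpinf1, pigment epithelium-derived factor, is a secreted protein with anti-angiogenic activity and inhibits no protease. Its neighbour Serpinf2, alpha-2 antiplasmin, is the main plasma inhibitor of plasmin. Both lie on the minus strand of chromosome 11, 9030 bp apart (75409769 to 75422701 and 75431732 to 75439591, GRCm38). Serpinf1 read 1574, 1515, 1568 and 1462 FPKM in NL and 786.8, 742.9 and 706.3 in c-MYC. It then read 56.14, 66.96 and 220.5 with FOXO1AAA. Serpinf2 followed it at 638.4 to 757 in NL, 416.2, 491.2 and 414.1 in c-MYC, and 18.66, 22.16 and 67.99 in c-MYC/FOXO1AAA. For both, the c-MYC libraries lay below the NL range and the c-MYC/FOXO1AAA libraries far below both, with c-MYC/FOXO1AAA 3 the highest of the 3.

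Against NL, neither clade f gene was called in c-MYC, at -1.04 (SE 0.37, limma adjusted p = 0.226) for Serpinf1 and -0.69 (SE 0.36, adjusted p = 0.60) for Serpinf2. Serpinf1 was called without c-MYC/FOXO1AAA 3, which enters only through the shared spread (adjusted p = 0.000839, range over all alternatives 0.000669 to 1), and the sign of Serpinf2 turned with an equal FPKM total (0.24). With FOXO1AAA, both were below c-MYC, at -2.98 and -3.85 (adjusted p = 0.000454 and 4.05e-05). Without c-MYC/FOXO1AAA 3 the fall of Serpinf1 was -3.60. In the c-MYC tumours these 2 genes took 42.1 ± 1.76% of the Serpin reads, against 8.61 ± 0.252% in NL and 13.6 ± 8.26% in c-MYC/FOXO1AAA.

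Serping1, the C1 inhibitor, restrains the first complement proteases and plasma kallikrein. It read 694.8 to 855.5 FPKM in NL. The values were 33.22, 48.37 and 38.61 in c-MYC and 19.31, 44.38 and 26.04 in c-MYC/FOXO1AAA, so that the tumour groups overlapped. It fell with c-MYC (-4.33, SE 0.24, limma adjusted p = 2.26e-07) and was not called with FOXO1AAA (-0.49, SE 0.26, adjusted p = 1).

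Serpine2, protease nexin 1, inhibits thrombin and urokinase at cell surfaces. It read 15.74 to 18.75 FPKM in NL, 4.775, 15.25 and 10.48 in c-MYC, and 18.08, 26.7 and 32.89 in c-MYC/FOXO1AAA. The c-MYC libraries were the lowest and the c-MYC/FOXO1AAA libraries were all above them, but no comparison passed the test with the deposited scaling and the 1.5-fold threshold. With FOXO1AAA the difference was 1.44 (SE 0.36, limma adjusted p = 0.0625). Serpine2 was called without c-MYC 2 (1.80, adjusted p = 0.0101) or c-MYC/FOXO1AAA 1 (1.68, adjusted p = 0.0382) and with an equal FPKM total (1.61, adjusted p = 0.0341). It was also called with a replicate block (range over all alternatives 0.00572 to 0.194), although the replicate numbers do not pair the libraries. Its sign between c-MYC and NL turned with an equal FPKM total (-0.90 against 0.03), and without the fold-change threshold -0.90 was called (adjusted p = 0.0308). Between c-MYC/FOXO1AAA and NL the difference was 0.54, and with an equal FPKM total 1.64 and called (adjusted p = 0.00874).

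Serpinh1, also called HSP47, is no inhibitor but a chaperone of collagen in the endoplasmic reticulum. It read 55.63, 24.3, 45.2 and 27.7 FPKM in NL, 445, 158.2 and 389.1 in c-MYC, and 798, 681.1 and 734.6 in c-MYC/FOXO1AAA. Every c-MYC library was above every NL library and below every c-MYC/FOXO1AAA library. It rose with c-MYC (3.05, SE 0.37, limma adjusted p = 0.000123). The further difference of 1.29 (SE 0.40, adjusted p = 0.158) was not called. It was called without the fold-change threshold (adjusted p = 0.0182). It was also called with a replicate block (adjusted p = 0.0402, range over all alternatives 0.0182 to 0.562), although the replicate numbers do not pair the libraries. While the share of all reads held by the Serpin genes together declined, Serpinh1 went from 0.0429% of the Serpin reads in NL to 3.36 ± 1.73% in c-MYC and 23.8 ± 5.89% in c-MYC/FOXO1AAA.

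**Figure D5:**
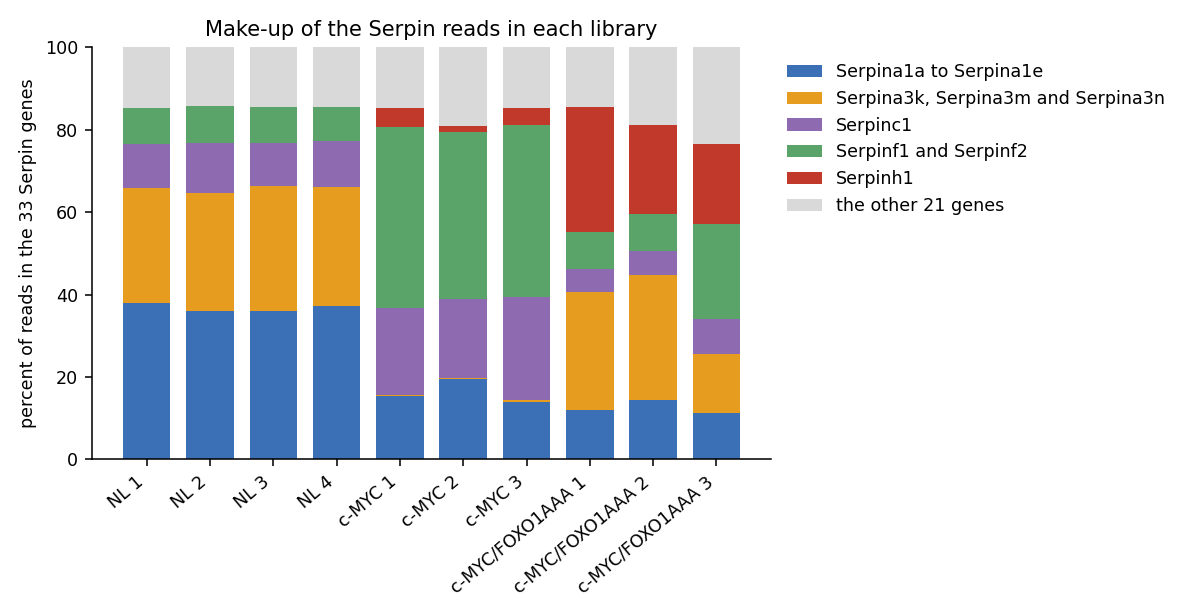
Share of the Serpin reads of each library taken by 5 sets of genes, as a percentage of the reads in all 33 Serpin genes, with the remaining 21 genes in grey. Serpina3k, Serpina3m and Serpina3n took 27.8 to 30.5% in NL, 0.205 to 0.669% in c-MYC and 14.3 to 30.5% in c-MYC/FOXO1AAA. The bars do not show that the total fell from 2.13% of all reads in NL to 0.464% and 0.167%.

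Clade b was a minor part of the family by reads, at 0.0936% of the Serpin reads in NL, 1.11% in c-MYC and 2.99% in c-MYC/FOXO1AAA. Serpinb6a, a cytosolic inhibitor that includes cathepsin G among its targets, read 10.65, 7.063, 6.885 and 8.931 FPKM in NL. It read 20.99, 25.05 and 24.63 in c-MYC and 14.04, 15.58 and 26.86 in c-MYC/FOXO1AAA. All tumour libraries were above all NL libraries, and the tumour groups overlapped. It rose with c-MYC (1.5, SE 0.23, limma adjusted p = 0.0029) and was not called with FOXO1AAA (-0.38). Its call above NL in c-MYC/FOXO1AAA (1.12, adjusted p = 0.0332) was lost without NL 2, NL 3 or c-MYC/FOXO1AAA 3 (adjusted p = 0.0747, 0.0787 and 0.155), and also with an equal median (0.0752), only the 2 groups compared (0.0518) or a replicate block (0.0625, range over all alternatives 1.07e-05 to 0.155).

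Serpinb9, which inhibits granzyme B, fell from 2.68 ± 0.433 FPKM to 0.368 ± 0.0488 in c-MYC and stood at 0.497 ± 0.208 in c-MYC/FOXO1AAA (first step -2.75, limma adjusted p = 4.11e-05, and -1.40 with a pseudocount of 1 FPKM). Serpinb8, an inhibitor of furin, fell from 3.05 to 0.12 FPKM and stood at 0.241 (first step -3.99, adjusted p = 6.1e-05, and -1.76 with that pseudocount), on 10 reads or fewer in every tumour library. Serpinb6b averaged 8.38, 4.95 and 4.35 FPKM and was called in no comparison, and Serpinb1a and Serpini1 (neuroserpin) were below the filter. In contrast to clade a, the fitted differences of the 4 tested clade b genes between c-MYC/FOXO1AAA and c-MYC ranged only from -0.38 to 0.62. Serpinb8 and Serpinb9 held few reads in the tumours, where log2 fold changes are understated. Serpinb1a, at means of 0.414 FPKM in c-MYC and 1.35 in c-MYC/FOXO1AAA, the latter raised by c-MYC/FOXO1AAA 3 at 3.137, is not in that range. Serpinb1, Serpinb6 and Serpinb9 have related copies in the mouse, and whether reads were shared between copies was not tested.

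The targets, cofactors and partners of the serpins were read from lists of 70 genes, of which 58 were tested. In c-MYC against NL, 31 of the 58 fell and 12 rose, where 23.6% of all tested genes fell and 24.5% rose. In c-MYC/FOXO1AAA against c-MYC 30 fell and 12 rose, where 12.7% of all tested genes fell and 15.9% rose. The same shares are the background of the single lists that follow, which hold few genes each. Of the 12 tested proteases of coagulation and fibrinolysis, 10 fell in c-MYC and 9 fell with FOXO1AAA. Prothrombin (F2), the target of antithrombin and heparin cofactor II, went from 1626 to 297 and 39.8 FPKM (-2.46 and -2.96, limma adjusted p = 9.14e-06 and 5.49e-06). Plasminogen (Plg), whose active form alpha-2 antiplasmin inhibits, went from 1218 to 143 and 22.5 FPKM (-3.15 and -2.66). All 6 complement and lectin proteases fell in c-MYC, and 3 of them fell further with FOXO1AAA. Of 5 membrane serine proteases, 3 rose and 2 fell in c-MYC, and all 5 fell with FOXO1AAA. The proprotein convertase furin (Furin), which Serpinb8 inhibits, averaged 86.1, 54.8 and 23.4 FPKM and was called with FOXO1AAA (-1.22, adjusted p = 0.00168) but not in c-MYC against NL (-0.66, adjusted p = 0.44), and of 5 tested lysosomal cysteine proteases and caspase 1, 2 fell at that step.

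Urokinase (Plau), an activator of plasminogen, averaged 0.301, 1.19 and 7.41 FPKM, with changes of 1.97 and 2.55 (limma adjusted p = 0.0144 and 0.00535). Its receptor Plaur averaged 0.318, 1.69 and 8.96 FPKM (2.07 and 2.43, adjusted p = 0.00219 and 0.00144). The first changes of Plau and Plaur were not called with a pseudocount of 1 FPKM, nor was that of Plau without c-MYC 3. Thrombomodulin (Thbd), which turns thrombin towards protein C, rose with FOXO1AAA from 0.552 to 23.7 FPKM (5.27, adjusted p = 4.4e-07). Thbd passed the filter on low values through c-MYC/FOXO1AAA alone, so a rise was the only call it could give there.

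Proteinase 3 (Prtn3), a neutrophil protease that alpha-1 antitrypsin inhibits, was 48.9 FPKM in c-MYC against 4.84 in NL and 0.783 in c-MYC/FOXO1AAA (3.43 and -5.99, limma adjusted p = 0.00248 and 0.000102). Of the 8 neutrophil markers 3 were in the table. They summed to 0.845 to 4.43 FPKM in NL, 1.21 to 2.43 in c-MYC, where Prtn3 was highest, and 0.723 to 15.8 in c-MYC/FOXO1AAA, and the part of neutrophils in this was not tested.

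Among 12 collagens and collagen-folding enzymes, the clients and partners of Serpinh1, 4 rose and 2 fell in c-MYC, near the 24.5% and 23.6% of all tested genes, and 7 rose and 3 fell with FOXO1AAA, against 15.9% and 12.7%. Their summed level was 728 to 835 FPKM in NL, 1492 to 1897 in c-MYC and 593 to 844 in c-MYC/FOXO1AAA, so that the sum was lower with FOXO1AAA although more of the genes rose. Most of the sum came from Col4a1, a collagen of basement membranes, and P4hb, a subunit of prolyl hydroxylase. The higher sum in c-MYC than in NL rested on Col4a1. Such sums depend on the gene lengths the authors divided by. Col4a2, with at most 4799 reads in a library against 10047 for Col4a1, averaged only 4.77, 33.3 and 13.1 FPKM. Col4a1 averaged 103, 1064 and 342 FPKM (3.39 and -1.68, limma adjusted p = 4.65e-06 and 0.00754) and P4hb 625, 516 and 165 (-0.28 and -1.64, adjusted p = 1 and 4.99e-06). Col4a2 fell with FOXO1AAA as well (-1.40, adjusted p = 0.0398). Among those that rose with FOXO1AAA, Col3a1 averaged 5.93, 8.08 and 59.2 FPKM (0.30 and 3.01, limma adjusted p = 1 and 0.000124), P4ha1, a prolyl hydroxylase, 4.77, 11.7 and 45.6 (1.32 and 1.96), and Plod2, a lysyl hydroxylase, 0.107, 0.182 and 14.3 (0.57 and 6.25, the latter 3.65 with a pseudocount of 1 FPKM). Plod2 and Col5a2, both counted among the 7, stood below 1 FPKM in every NL and c-MYC library. They passed the filter through c-MYC/FOXO1AAA alone, so a rise was the only call with FOXO1AAA they could give. Markers of stellate cells and fibroblasts were also higher with FOXO1AAA, and Col1a1 and Col3a1 stand in both lists. The 8 markers summed to 84.3 to 106 FPKM in NL, 12 to 39.5 in c-MYC and 449 to 495 in c-MYC/FOXO1AAA, 6 of 8 rose with FOXO1AAA, and none was at 0 in all libraries. The 6 markers outside the collagen list summed to 76.8 to 98.3, 5.21 to 17.7 and 349 to 433 FPKM, and 5 of them rose with FOXO1AAA. From NL to c-MYC the 8 markers summed to less, with Dcn at means of 69.7 and 4.52 FPKM. In that comparison 4 of them fell, 1 rose (Col1a1 at 1.86, limma adjusted p = 0.0363) and 3 were not called. Of all tested genes 23.6% fell and 24.5% rose. The part of stellate cells and fibroblasts in the rise of Serpinh1 with c-MYC and its higher values with FOXO1AAA was not tested.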

How the data were processed

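RNA sequencing of total RNA was analysed in 10 mouse liver libraries, grouped by their titles. The deposited table holds log2 FPKM per gene. Per their methods, the authors counted reads by gene and normalised the counts, and the processing notes of the submitters name GRCm38 and FastQC 0.11.7. The aligner, counter, annotation and strand setting are not given in the sources used here, and the library text names polyA capture or rRNA removal without saying which.

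The deposited log2 values showed that a prior count of 2, scaled to the library, had been added. Whole reads and gene lengths were recovered from them for 16678 of 16697 genes (99.89%, tolerance 0.002 reads), including all 34 genes that match the rule, and FPKM without the prior count are printed as levels. On simulated data 99.96% of 16678 genes had a single solution. The table has 17069 entries, of which 372 without symbol or values were left out. The scaling of the authors divided out at 0.649 to 0.684 of the reads in NL, 1.256 to 1.295 in c-MYC and 1.454 to 1.502 in c-MYC/FOXO1AAA.

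The test ran on the deposited log2 values, since they are no counts. Genes with at least 1 FPKM in at least 3 libraries were kept, and limma 3.58.1 (R 4.3.3, statmod 1.5.0) fitted a mean per group to all 10 libraries. The function treat tested 2-sided against a 1.5-fold change, with trend and robust estimation and Benjamini-Hochberg adjustment over 14017 genes, with calls at adjusted p under 0.05. On simulated data of 13178 genes for c-MYC/FOXO1AAA versus c-MYC, 190 of 200 genes changed by 2 on the log2 scale were recovered and 0 unchanged genes were called. The simulation gave all genes the same fixed spread, which was not estimated from these libraries. It checks that the code runs as meant and gives no error rate for these data. Log2 fold changes include the prior count and understate changes of low genes. A floor of 3 reads per library covers counting error only.

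Members and lists were chosen with earlier results of these data known. Members described in full were those called in either of the first 2 comparisons with a mean of at least 10 FPKM in a group, up to 30, and the highest member of each clade, 23 genes in all, and the others were added to account for the family. Of the 34 genes that match the rule, 1 is not reported here and is in no count of members. Positions are those of GENCODE M21 on GRCm38, matched by symbol, and promoters those of RefSeq on GRCm38.p6. Promoter windows were aligned in pairs end to end with an affine gap penalty. Alternatives were a pseudocount of 1 FPKM, no filter, a mean FPKM of at least 5, an equal FPKM total, an equal median, no fold-change threshold, only the 2 groups compared, a replicate block, and leaving out each library.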

Additional observations from a re-analysis of the deposited data

Results flagged for a closer look

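In 34 sets of the 4 NL values, 33 for the Serpin genes and 1 for their share of reads, 2 held a library far from the others, about what chance gives at 1 in 20. Serpinb1a in NL 4 was low at 0.116 FPKM (2 reads), against 0.5192 to 0.6637 in the other NL libraries, and its gap made up 0.842 of the range on the log2 scale. Serpini1 in NL 4 was high at 0.109 FPKM (4 reads), against 1 read in each of the others, with a gap of 0.928 of the range. Both genes were below the filter on low values and were not tested.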

How the results depend on the processing

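Over the tested Serpin genes and 13 genes of the lists, 2241 values under alternatives kept direction and side of the threshold in 2166 cases, lost the call in 43, gained it in 23 and changed sign in 9. The sign changes were all of uncalled differences. In c-MYC versus NL they were Serpine2 (0.03), Serpinf2 (0.24), Serpinb6b (0.23) and Furin (0.27) with an equal FPKM total, and Serpina3g without NL 3 (-0.21) or c-MYC 1 (-0.36, range -0.36 to 0.37 over single libraries left out). In c-MYC/FOXO1AAA versus c-MYC they were Serpina3h without c-MYC 1 (range -0.50 to 0.14) and Serpinb6b without c-MYC/FOXO1AAA 1 (range -0.69 to 0.24). Against NL it was Serpinb6b with an equal FPKM total (0.07). The number of Serpin genes that rose with FOXO1AAA was 7 without the fold-change threshold and 4 with it, and the cause of other changes was not tested. Leaving out single libraries gave 20 to 22 lower in c-MYC, and 4 to 5 higher and 11 to 13 lower with FOXO1AAA. The replicate numbers do not pair the libraries (r of same-numbered libraries -0.04 to 0.03). With a replicate block the counts were 2 higher and 21 lower for c-MYC against NL, 6 higher and 12 lower for FOXO1AAA within c-MYC tumours, and 1 higher and 24 lower for c-MYC/FOXO1AAA against NL. The number above NL in c-MYC/FOXO1AAA, 2 as reported, was 1 with the block, with an equal median and with only the 2 groups compared, and 1 to 2 over single libraries left out. An equal FPKM total moved the medians of all genes to 1.01, 0.20 and 1.31. The number of libraries limits the precision, and genes near 1 FPKM rest on few reads.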
